A study of Homo sapiens with 6 samples.

Results

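The transcripts described here encode 10 receptor tyrosine kinases of hepatocyte growth signalling: MET and MST1R, the ErbB receptors EGFR, ERBB2 and ERBB3, the fibroblast growth factor receptors FGFR1, FGFR2, FGFR3 and FGFR4, and AXL. They were listed by name, with earlier results of these data known, and all 10 were measured among 33616 named genes. Each gene was read by a probe set annotated with exactly 1 gene symbol, and where a gene had several, by the probe set with the highest mean over all 6 arrays. ERBB2 had 2 such probe sets and the other 9 receptors had 1 each.

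RNA came from HepG2, an established line of human liver cancer cells with many hepatocyte traits. They received 30 nM of a UHMK1-specific siRNA (3 arrays) or of a nonsense or scrambled siRNA (3 arrays), in both cases by transfection with Lipofectamine RNAiMAX, and RNA was collected after 24 h. The comparison asks how the transcripts of a liver cancer cell differ when UHMK1, a kinase known for phosphorylating the splicing factor SF1, is targeted. All arrays come from 1 cell line, loss of UHMK1 and other effects of its siRNA cannot be told apart in this design, and the labels do not say whether the arrays of a group stem from separate cultures. If they do not, p-values reflect technical spread alone.

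Receptor tyrosine kinases sit in the cell membrane, bind a growth factor outside the cell, pair up and phosphorylate each other's tails, which recruit adaptor proteins and switch on the RAS-ERK and phosphoinositide 3-kinase cascades. In the liver, MET with its ligand HGF and EGFR with its family of ligands are known for driving hepatocyte division during regeneration. ERBB3 has a weak kinase and signals mainly in pairs with ERBB2 or EGFR, and FGFR4 with the co-receptor KLB receives FGF19, the gut signal that lowers bile acid synthesis. Active receptors are restrained by ubiquitin ligases such as CBL and by inhibitors that the ERK cascade itself induces, among them the Sprouty proteins and dual-specificity phosphatases.

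The targeted gene was checked first. UHMK1 stood at a log2 level of 8.36, 7.80 and 7.94 on UHMK1 siRNA arrays 1, 2 and 3, against 11.42, 11.24 and 11.74 on scrambled siRNA arrays 1, 2 and 3 (limma change -3.43, SE 0.20, adjusted p = 0.000112), so the labels held. The median over all probe sets lay between 4.41 and 4.55 on UHMK1 siRNA arrays and between 4.40 and 4.43 on scrambled siRNA arrays. UHMK1 siRNA array 2 stood apart: its median shift from the scrambled siRNA mean, over genes with a mean level above 8, was -0.25, against -0.03 and -0.06 for UHMK1 siRNA arrays 1 and 3. All 12 measured hepatocyte markers were bright, at 14.45 to 19.24 on UHMK1 siRNA arrays and 13.90 to 19.26 on scrambled siRNA arrays, and 1 of them, the fibrinogen chain FGG, rose (0.97, adjusted p = 0.00728). Of 12 markers of leukocytes, endothelium and fibroblasts, 0 passed limma's test, 0 also had an unadjusted p under 0.05, and their levels spanned 3.60 to 11.52 on UHMK1 siRNA arrays and 3.31 to 11.87 on scrambled siRNA arrays. The highest of these belonged to CD68 and ACTA2, which stood at -0.31 (adjusted p = 0.356) and -0.23 (adjusted p = 0.629), while CD3E stood at -0.22 (adjusted p = 0.531). In bulk RNA, fewer cells that make a transcript and less of it per cell cannot be told apart.

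MET was lower after UHMK1 siRNA and was the receptor of the 10 that passed the test. ERBB2 and ERBB3 had higher values on every UHMK1 siRNA array than on any scrambled siRNA array, and FGFR2 and FGFR4 lower ones, but none of these 4 passed. Values of EGFR, MST1R, FGFR1, FGFR3 and AXL overlapped between the groups. In all, 1 of 10 receptors fell and 0 rose at limma's adjusted p under 0.05, where 2.67% of all tested genes fell and 0.726% rose (3.39% together). With 10 genes, 1 call is too few to set the receptors apart from that background. At an unadjusted p under 0.05 there were 4 receptors, MET, ERBB2, ERBB3 and FGFR2, against 15.3% of all genes. The arrays of the groups did not overlap for 5 of 10 receptors, 2 higher and 3 lower, and for 21.0% of all genes. A mean level of at least 6 was reached by 8 of the 10 receptors but by 13547 of all 33616 genes. The shares over all genes are thus not a matched background. With dimmer genes filtered out, 1 of 8 receptors rose and 1 fell, where 517 of 13547 genes rose and 1570 fell. The median change of the 10 was -0.24, beside -0.02 over all tested genes, with 6 changes negative and 4 positive.

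**Figure D1:**
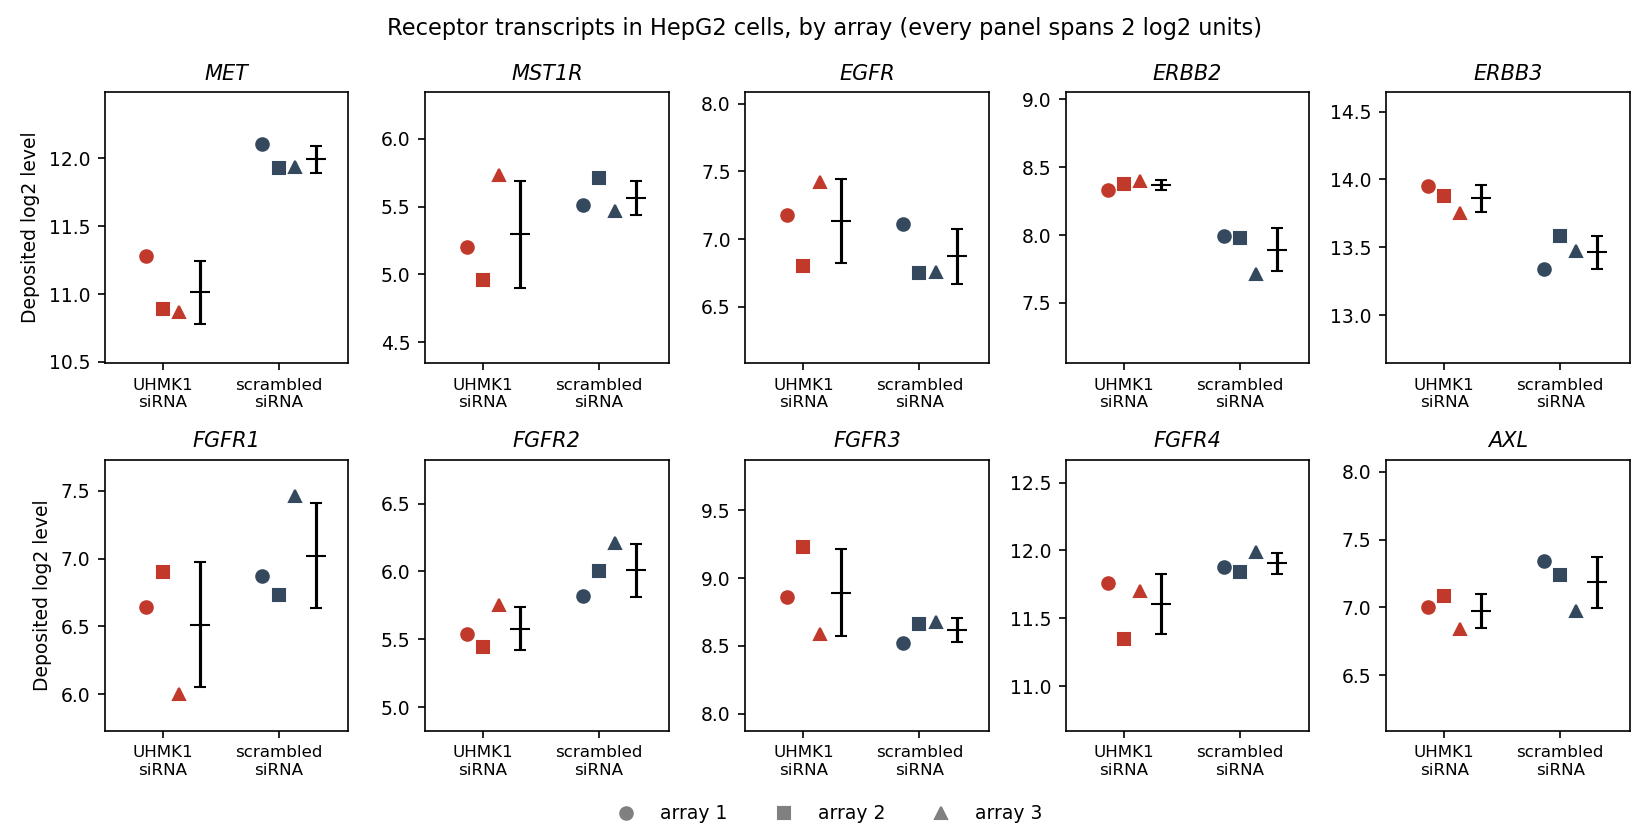
Deposited log2 levels of the 10 receptor transcripts, with a panel for each gene, UHMK1 siRNA arrays on the left and scrambled siRNA arrays on the right. Symbols mark arrays 1, 2 and 3, and the bar beside them is the mean ± SD of 3 arrays. MET, FGFR2 and FGFR4 lay lower and ERBB2 and ERBB3 higher on all UHMK1 siRNA arrays, and the other 5 overlapped.

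MET, the receptor of hepatocyte growth factor, read 11.28, 10.89 and 10.87 (log2) on UHMK1 siRNA arrays 1, 2 and 3, against 12.11, 11.93 and 11.94 on scrambled siRNA arrays 1, 2 and 3. The highest UHMK1 siRNA array thus stayed below the lowest scrambled siRNA array. The means were 11.01 ± 0.23 and 11.99 ± 0.10 (SD, n = 3 each), a fall of 0.98 on the log2 scale (SE 0.17, 95% confidence interval -1.35 to -0.61, adjusted p = 0.0145 in limma). In the deposited values this is a 1.97-fold lower signal, or 50.7% of that after scrambled siRNA. MET kept its call without UHMK1 siRNA array 2 (-0.92, adjusted p = 0.0381) and lost it without UHMK1 siRNA array 3 (-0.91, adjusted p = 0.0591) or scrambled siRNA arrays 1 (-0.92, 0.0774), 2 (-1.01, 0.0607) or 3 (-1.01, 0.0571). Across all 14 other settings its adjusted p ranged between 0.00309 and 0.0774, and its change stayed negative.

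The promoter of MET is shown because MET is the receptor whose transcript passed the test. No link between its sequence and the change was tested. The window runs from 250 bases before to 50 bases after the gene's start in RefSeq, build GRCh38.p14, chr7:116671946-116672245, plus strand. Capitals mark matches to 4 short motifs searched on both strands: TGACTCA (AP-1), CCGGAAG (ETS factors), GGGCGG (GC box) and CACGTG (E box, the letters bound by MYC and related factors).
MET promoter: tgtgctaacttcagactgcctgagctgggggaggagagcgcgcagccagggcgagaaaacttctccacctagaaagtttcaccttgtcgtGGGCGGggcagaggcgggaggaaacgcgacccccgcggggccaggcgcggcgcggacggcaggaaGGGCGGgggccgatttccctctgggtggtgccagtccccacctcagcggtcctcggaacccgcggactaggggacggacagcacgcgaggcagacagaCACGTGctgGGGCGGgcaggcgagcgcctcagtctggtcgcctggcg
It held 3 GC boxes and 1 E box, none of which overlap, and 0 matches to the AP-1 and ETS letters. Among 35116 promoter windows of the same length, 45.0% held the GC box letters, 7.26% the E box, 10.3% the ETS and 4.95% the AP-1 letters. Promoter windows were listed for 8 of the 10 receptors, with 15 start sites in all. The GC box was present in at least 1 window of 7 of them, the E box in MET and FGFR4, the ETS letters in ERBB2 and MST1R, and the AP-1 letters in EGFR. These counts are per gene, with up to 5 windows each, while the shares above are per window, so they cannot be compared directly. These matches describe letters in a window and were not tested as binding sites.

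MST1R, the receptor of macrophage-stimulating protein and the relative of MET in this set, had 5.20, 4.96 and 5.73 on UHMK1 siRNA arrays, against 5.51, 5.71 and 5.47 on scrambled siRNA arrays. UHMK1 siRNA array 3 held the highest value of the 6 and UHMK1 siRNA array 2 the lowest, so the groups overlapped. The change was -0.27 (SE 0.21, 95% interval -0.74 to 0.20, adjusted p = 0.624), and it was -0.10 without UHMK1 siRNA array 2 and -0.48 without UHMK1 siRNA array 3. The ligands of MET and MST1R, named for their receptors after their values were seen, did not pass either. HGF was dim, between 4.58 and 4.72 on UHMK1 siRNA arrays and between 4.66 and 4.74 on scrambled siRNA arrays, so a change of it could be missed. MST1, whose near-identical copies in the genome make its signal uncertain, stood at 9.16 to 9.28 on UHMK1 siRNA arrays and 8.89 to 9.15 on scrambled siRNA arrays.

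The ErbB receptors all had positive changes, of which 0 passed limma's test. ERBB2, the ErbB receptor without a ligand of its own, had 8.33, 8.38 and 8.40 on UHMK1 siRNA arrays and 7.99, 7.98 and 7.71 on scrambled siRNA arrays. The lowest UHMK1 siRNA array lay above the highest scrambled siRNA array. The means were 8.37 ± 0.04 and 7.89 ± 0.16 (SD, n = 3 each), a change of 0.48 (SE 0.15, 95% interval 0.14 to 0.81, adjusted p = 0.145). It passed at an adjusted p = 0.0459 when dim genes were left out, which lowers the number of genes tested.

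The ERBB2 value depends on its probe set. The one used carries the symbol without an Entrez gene ID. The second probe set of ERBB2, which has the ID, read 6.04, 6.74 and 6.35 on UHMK1 siRNA arrays and 5.81, 6.42 and 6.36 on scrambled siRNA arrays, so that its groups overlapped. Its change was 0.18 (SE 0.23, adjusted p = 0.797 over all named probe sets), and the mean of both probe sets gave 0.33 (adjusted p = 0.394). A further probe set that lists ERBB2 together with another symbol was not used. Which of the 3 reads the main ERBB2 transcript is not settled here, so levels and changes of ERBB2 are those of the probe set used.

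ERBB3, an ErbB receptor that binds neuregulins, had 13.95, 13.88 and 13.75 on UHMK1 siRNA arrays, against 13.34, 13.58 and 13.47 on scrambled siRNA arrays. Here too every UHMK1 siRNA array lay above every scrambled siRNA array. The means were 13.86 ± 0.10 and 13.46 ± 0.12 (SD, n = 3 each), with a change of 0.40 (SE 0.15, 95% interval 0.06 to 0.73, adjusted p = 0.230). Under 14 other settings its change stayed between 0.33 and 0.45, with an adjusted p from 0.0774 to 0.499.

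EGFR, the receptor of EGF, TGFA and related ligands, had 7.18, 6.80 and 7.42 on UHMK1 siRNA arrays and 7.11, 6.75 and 6.76 on scrambled siRNA arrays. UHMK1 siRNA array 2 lay below scrambled siRNA array 1, and the groups overlapped. The change was 0.26 (SE 0.20, 95% interval -0.18 to 0.70, adjusted p = 0.611). It was 0.43 without UHMK1 siRNA array 2 and 0.12 without UHMK1 siRNA array 3. The interval leaves room for a rise of 0.70, so EGFR is not shown to be unchanged. The measured ErbB ligands did not pass: epiregulin, EREG, had 5.97, 5.75 and 6.61 on UHMK1 siRNA arrays against 7.16, 7.34 and 6.79 on scrambled siRNA arrays, without overlap (-0.99, SE 0.24, adjusted p = 0.0672). HBEGF, the heparin-binding ligand of EGFR, stood at -0.27 (adjusted p = 0.439).

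**Figure D2:**
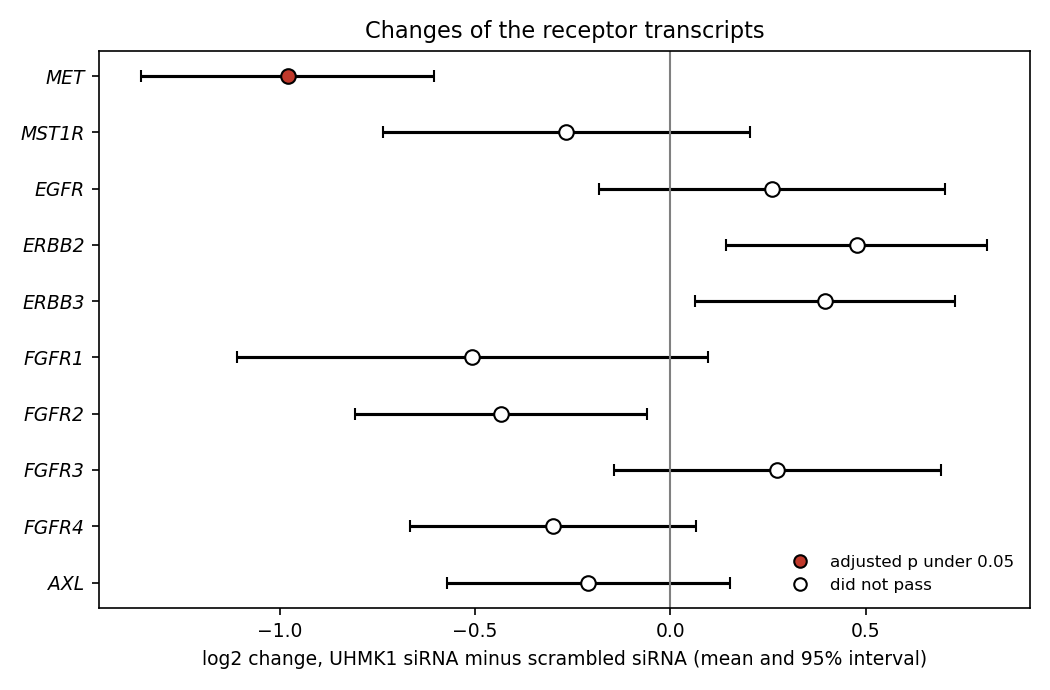
log2 changes of the 10 receptor transcripts, UHMK1 siRNA minus scrambled siRNA, with limma's 95% confidence intervals, which are not adjusted for the number of genes. The filled point is MET at -0.98, and the intervals of ERBB2, ERBB3 and FGFR2 also exclude 0 although these genes did not pass the adjusted threshold.

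Among the fibroblast growth factor receptors 3 changes were negative and 1 was positive, and 0 passed limma's test. FGFR4, the FGF19 receptor of hepatocytes, had 11.76, 11.35 and 11.70 on UHMK1 siRNA arrays and 11.88, 11.84 and 11.99 on scrambled siRNA arrays. The groups did not overlap, with the lowest value on UHMK1 siRNA array 2. The change was -0.30 (SE 0.16, 95% interval -0.67 to 0.07, adjusted p = 0.443), and it was -0.17 without that array.

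KLB, the co-receptor that FGFR4 needs to bind FGF19, rose. It had 13.19, 13.12 and 13.00 on UHMK1 siRNA arrays, against 11.92, 11.84 and 12.27 on scrambled siRNA arrays. Its change was 1.09 (SE 0.16, adjusted p = 0.00872), and its adjusted p was 0.0508 and 0.0523 when scrambled siRNA array 1 or 2 was left out. The change of KLB passed and the negative one of FGFR4 did not, so whether receptor and co-receptor differ in direction is not settled. FGF19 itself, named after its values were seen, was dim at 3.67 to 4.11 on UHMK1 siRNA arrays and 3.91 to 4.36 on scrambled siRNA arrays.

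FGFR2 had 5.54, 5.44 and 5.75 on UHMK1 siRNA arrays and 5.82, 6.0 and 6.21 on scrambled siRNA arrays. The gap between the groups was narrow but no value crossed it. The change was -0.43 (SE 0.17, 95% interval -0.81 to -0.06, adjusted p = 0.246). With a mean level under 6, FGFR2 and MST1R were the receptors left out by the filter on dim genes, which kept 8 of 10.

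FGFR1 was the most variable of the receptors, with a residual SD (the spread within groups) of 0.43, beside a median of 0.18 over the 10 and of 0.22 over all genes. It read 6.64, 6.90 and 6.0 on UHMK1 siRNA arrays and 6.87, 6.73 and 7.46 on scrambled siRNA arrays. UHMK1 siRNA array 2 lay above scrambled siRNA arrays 1 and 2. The change of -0.51 (SE 0.27, 95% interval -1.11 to 0.10, adjusted p = 0.430) was -0.25 without UHMK1 siRNA array 3, was -0.29 when array 3 of the scrambled siRNA group was left out, and did not pass under any setting tried.

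FGFR3 had 8.86, 9.23 and 8.59 on UHMK1 siRNA arrays and 8.52, 8.66 and 8.68 on scrambled siRNA arrays. It was highest on UHMK1 siRNA array 2, while UHMK1 siRNA array 3 lay within the range of the scrambled siRNA arrays. The change was 0.27 (SE 0.19, 95% interval -0.15 to 0.69, adjusted p = 0.559). It was 0.10 without UHMK1 siRNA array 2 and 0.42 without UHMK1 siRNA array 3.

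AXL, a receptor of the TAM family that binds GAS6 and is known for survival signalling in tumour cells, had 7.0, 7.08 and 6.84 on UHMK1 siRNA arrays and 7.34, 7.24 and 6.97 on scrambled siRNA arrays. Scrambled siRNA array 3 lay below UHMK1 siRNA arrays 1 and 2, so the groups overlapped. The change was -0.21 (SE 0.16, 95% interval -0.57 to 0.15, adjusted p = 0.616). Leaving out scrambled siRNA array 1 gave -0.13, and leaving out array 3 of that group gave -0.32. Its relative MERTK, a receptor for the uptake of dying cells, rose. MERTK had 14.83, 14.75 and 15.00 on UHMK1 siRNA arrays against 14.25, 14.01 and 14.24 on scrambled siRNA arrays, a change of 0.69 (SE 0.15, adjusted p = 0.0438). No call was left when any 1 array was dropped, the change then lying between 0.61 and 0.75. TYRO3, the other TAM receptor, named after its values were seen, stood at -0.60 (adjusted p = 0.102), and the TAM ligand PROS1 at 0.54 (adjusted p = 0.148).

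The difference between MET and each other receptor within an array is given as a description, since MET was singled out for its fall and 3 arrays against 3 cannot reach a p under 0.05 in an exact permutation test. Over the 9 pairs the log2 difference was lower after UHMK1 siRNA, with changes between -1.46 (ERBB2) and -0.47 (FGFR1). MET minus ERBB3 was -2.85 ± 0.16 on UHMK1 siRNA arrays and -1.47 ± 0.22 on scrambled siRNA arrays (SD, n = 3 each). The groups overlapped for the pairs with FGFR1 and FGFR2 and did not for the other 7. Whether MET changed differently from the other receptors is not settled by these arrays.

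The genes whose profile over the 6 arrays was most like that of MET, by the root-mean-square difference of log2 values centred on each gene's mean, were ZFP91-CNTF (0.0587) and RRP9 (0.0662). ZFP91-CNTF is a read-through locus whose signal cannot be told from that of its neighbour genes, and RRP9 encodes a protein of the U3 small nucleolar ribonucleoprotein. RRP9 had 8.70, 8.41 and 8.37 on UHMK1 siRNA arrays and 9.47, 9.30 and 9.45 on scrambled siRNA arrays. Both were picked for this likeness over the same 6 arrays. Their changes near -1 (-0.98 and -0.91) and their highest UHMK1 siRNA value on array 1 are thus no separate result.

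Around the receptors, other genes of the pathway were grouped by role, in lists chosen with earlier results of these data known. Of 19 other growth receptors and co-receptors, KLB and MERTK rose and EPHA2, an ephrin receptor that ERK signalling is known to induce, fell. EPHA2 had 8.23, 8.16 and 8.41 on UHMK1 siRNA arrays against 9.91, 9.88 and 9.95 on scrambled siRNA arrays, a change of -1.65 (SE 0.14, adjusted p = 0.000805). These 3 are 15.8% of the list, beside 3.39% of all genes called, and the median of the list was 0.04. Among genes kept by the filter on dim genes, 3 of 12 in this list rose and 2 fell. Of all 13547 genes kept, 517 rose and 1570 fell. Of 21 ligands, 0 passed limma's test, 2 had an unadjusted p under 0.05, and the median was -0.07. A mean level of at least 6 was reached by 6 of the 21, so changes of the dim ligands could be missed. Of 11 genes listed for a role in ligand processing and activation or its control, 0 passed limma's test as well. Among them 1 had an unadjusted p under 0.05, and the median was 0.06. Of all genes, 15.3% had such a p. The gene was ADAM17, the protease that sheds ErbB ligands, at 0.54 (adjusted p = 0.101). PLAU stood at -0.36 (adjusted p = 0.329) and the protease ADAM10 at -0.31 (adjusted p = 0.405).

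Of 20 measured adaptors and kinases that carry the receptor signal, 2 rose and 1 fell (15.0%, beside 3.39% of all genes called). Their median change was -0.12. The filter on dim genes kept 19 of these 20 but 13547 of all 33616 genes, so 3.39% is not a matched background. Under that filter 2 of 19 rose and 3 fell, where 517 of 13547 genes rose and 1570 fell. GAB1, the docking protein that binds activated MET directly, had 12.70, 12.42 and 12.69 on UHMK1 siRNA arrays and 11.86, 12.02 and 11.90 on scrambled siRNA arrays. It rose by 0.68 (SE 0.15, adjusted p = 0.0466), but passed without UHMK1 siRNA array 2 alone when 1 array was left out, and its adjusted p was 0.126 to 0.170 without any other array. PIK3R3, a regulatory subunit of phosphoinositide 3-kinase, had 10.47, 10.30 and 10.38 on UHMK1 siRNA arrays against 8.90, 8.76 and 8.84 on scrambled siRNA arrays and rose (1.55, SE 0.14, adjusted p = 0.000940). PTPN11, the phosphatase SHP2 that GAB1 recruits, had 11.42, 12.03 and 11.63 on UHMK1 siRNA arrays and 12.92, 13.23 and 12.75 on scrambled siRNA arrays. It fell by 1.27 (SE 0.20, adjusted p = 0.0108), with an adjusted p of 0.0508 and 0.0582 when scrambled siRNA array 1 or 2 was left out. PTPN11 has near-identical pseudogene copies, so its signal is uncertain.

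**Figure D3:**
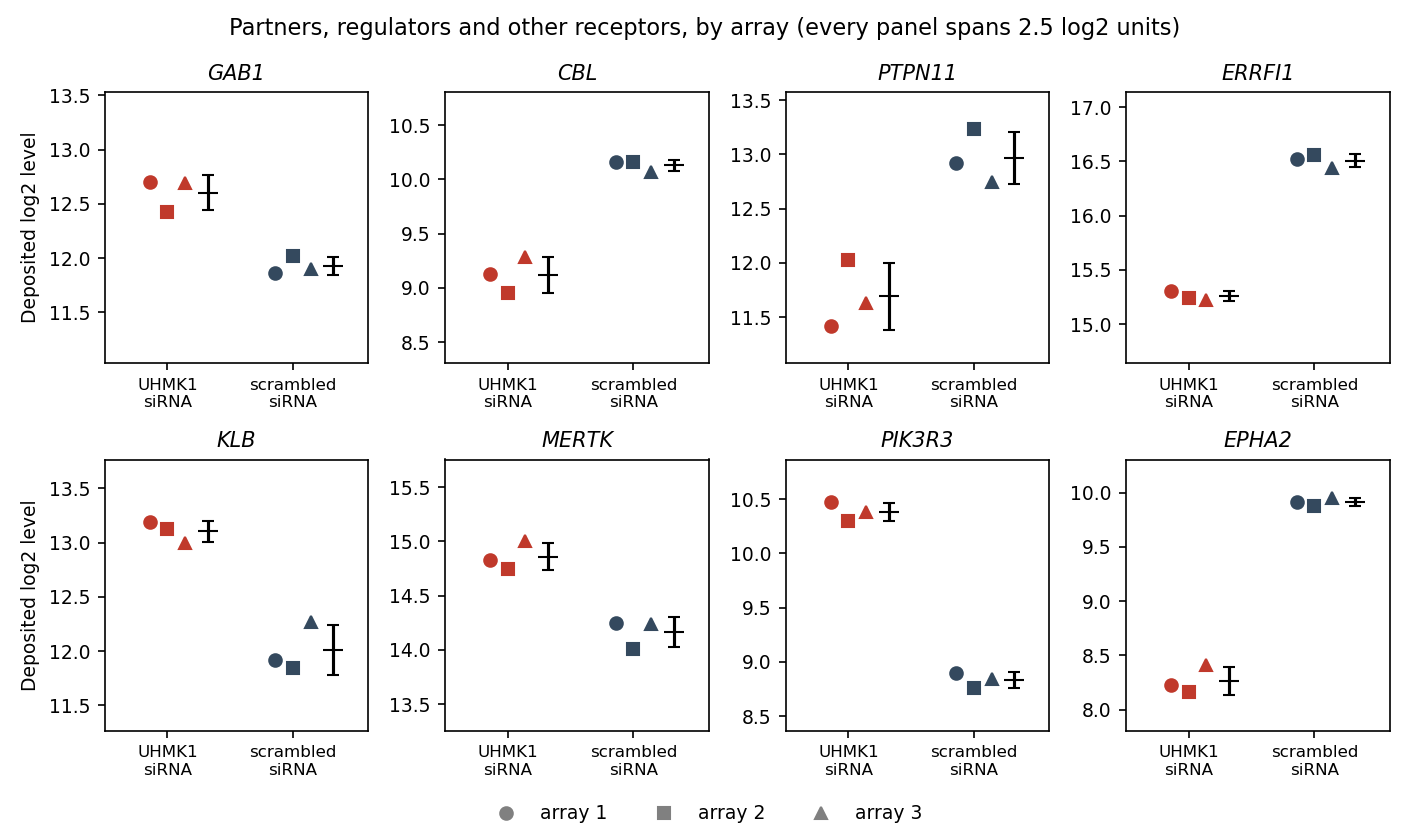
Deposited log2 levels of 8 partners, regulators and other receptors that passed the test, UHMK1 siRNA arrays on the left of each panel and scrambled siRNA arrays on the right, with the mean ± SD of 3 arrays. GAB1, KLB, MERTK and PIK3R3 lay higher and CBL, PTPN11, ERRFI1 and EPHA2 lower on all UHMK1 siRNA arrays.

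Several transcripts of proteins that restrain the receptors fell, CBL and ERRFI1 among them. Of 26 measured genes for receptor turnover and negative regulators, 7 fell and 0 rose (26.9%, beside 3.39% of all genes called), and the median was -0.26. With dim genes filtered out, 7 of 19 fell and 0 rose, where 1570 of 13547 genes fell. These 7 are not the same set of genes. The phosphatases DUSP5 and DUSP7, with mean levels of 5.82 and 5.50, were left out by that filter. The list was chosen with earlier results of these data known, so its share is not independent of them. CBL, the ubiquitin ligase that sends MET and EGFR to degradation, had 9.13, 8.95 and 9.28 on UHMK1 siRNA arrays against 10.16, 10.16 and 10.07 on scrambled siRNA arrays (-1.01, SE 0.15, adjusted p = 0.00802). Its second, dimmer probe set stood at -0.21 (adjusted p = 0.681), and the mean of both at -0.61 (adjusted p = 0.0868). ERRFI1, which binds and blocks the kinase of ErbB receptors, had 15.31, 15.24 and 15.22 on UHMK1 siRNA arrays against 16.52, 16.56 and 16.44 on scrambled siRNA arrays (-1.25, SE 0.14, adjusted p = 0.00210).

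The Sprouty protein SPRY4 fell by 2.75, the ERK phosphatase DUSP6 fell by 2.19, SPRY1 fell by 1.58, DUSP7 fell by 0.92 and DUSP5 fell by 0.87. DUSP5 lost its call without any array but scrambled siRNA array 2 (-0.89 to -0.75) and DUSP7 without any scrambled siRNA array. The count of falls was 6 without UHMK1 siRNA array 2 and between 5 and 6 with any 1 array left out. RNF41, the ubiquitin ligase of ERBB3, named after its values were seen, stood at 9.31, 9.17 and 9.28 on UHMK1 siRNA arrays and 9.05, 9.25 and 9.17 on scrambled siRNA arrays.

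Transcripts known to follow ERK activity downstream of these receptors showed 7 falls and 0 rises among 20 measured, which is 35.0% of the list, beside 2.67% of all genes that fell, with a median of -0.29. They were IER3 (-3.07), FOSL1 (-2.35), EGR1 (-1.84), CCND1 (-1.43), ETV5 (-1.27), ETV4 (-1.18) and MYC (-0.84). MYC lost its call without UHMK1 siRNA array 3 or any scrambled siRNA array (adjusted p = 0.0547 to 0.0714), and ETV4 without scrambled siRNA arrays 2 (0.0658) or 3 (0.0613). FOS, named after its values were seen, was dim at 3.82 to 4.08 on UHMK1 siRNA arrays and 3.93 to 4.39 on scrambled siRNA arrays, so a change of it could be missed. There were 7 falls without UHMK1 siRNA array 2 and at least 5 without any other array. With dim genes filtered out, 7 of 11 ERK-responsive transcripts fell and 0 rose, where 1570 of 13547 genes fell. This list too was chosen with earlier results of these data known, so its share is not independent of them. Lists were described by counts and medians and were not tested as sets.

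**Figure D4:**
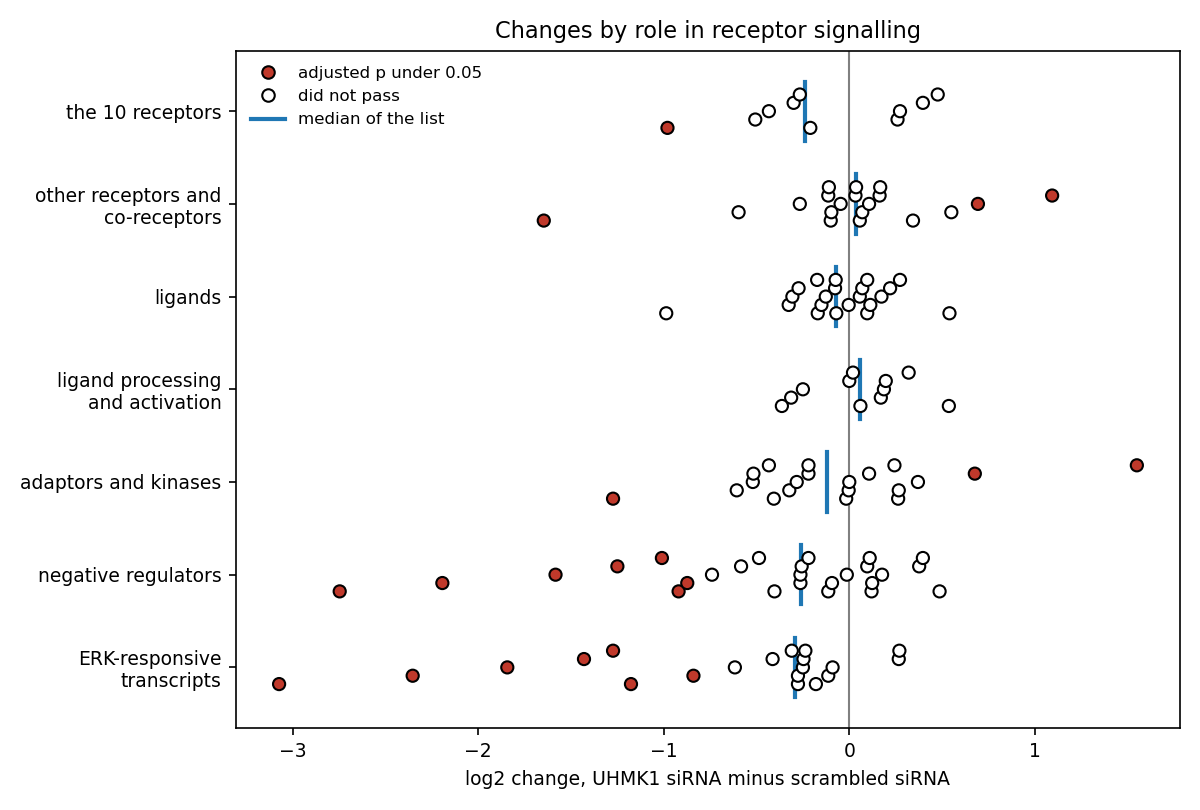
log2 changes, UHMK1 siRNA minus scrambled siRNA, of the 10 receptors and of 6 lists of pathway genes, each point a gene and each blue line the median of its list. Filled points passed limma's adjusted threshold: 1 receptor, 7 of 26 negative regulators and 7 of 20 ERK-responsive transcripts lie to the left, and 0 of the filled points in these 3 rows lie to the right.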

How the data were processed

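Biotin-labelled cRNA of 6 HepG2 samples was hybridised to Affymetrix arrays, per the labels' protocols. The deposited log2 values, with 2 decimals for 135750 probe sets, came from the authors' run of RMA in Transcriptome Analysis Console 4.0, the tools that the submitters' notes name. This method subtracts background, aligns the arrays and combines the probes of a probe set. It can compress changes, and whether fold sizes here are compressed or widened was not tested. Since arrays are scaled to each other, a change of total RNA cannot be read. The deposited arrays were nonetheless not identical in level, as given for UHMK1 siRNA array 2. Values were used as deposited. No detection call was used, and the number of arrays limits the precision.

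Probe sets with 1 symbol in the array's gene annotation numbered 36176. Another 1119 carry several and were not used, among them a probe set that lists ERBB2 with another symbol. Symbols were updated by Entrez gene ID through the RefSeq table of GRCh38.p14. The probe set with the highest mean was kept, leaving 33616 genes.

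Groups were compared by limma 3.58.1 under R 4.3.3 (lmFit, then eBayes, two-sided, no covariates), with Benjamini-Hochberg adjustment over all genes and a threshold of 0.05. The fit was tested on simulated data. The receptors and the 8 other lists (154 entries, 141 measured) were chosen with earlier results of these data known. Named were all receptors, UHMK1, every list gene past the threshold and otherwise the 3 with the smallest p, and the 2 genes most like each receptor that passed. Any other gene is marked in the text. Promoter sequence is from RefSeq, and no gene coordinates of the arrays were used. Other settings were 3 normalizations, a filter at a mean level of 6, the mean of a gene's probe sets, a trended robust variance, a replicate block, protein-coding genes alone and each array left out.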

Additional observations from a re-analysis of the deposited data

How the results depend on the processing

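The change of each of the 10 receptors kept its sign under every one of the 14 other settings in which it could be computed. No receptor rose except ERBB2 under the filter on dim genes (1 rise). MET was lower under all 8 settings that keep every array, and the number of receptor falls ranged from 0 to 1 with 1 array left out. The median change of the receptors was -0.28 with arrays centred on their medians, 0.025 over the 8 receptors kept by the dim filter, and -0.27 to -0.14 with 1 array left out. UHMK1 kept its call throughout. Deviations of arrays with the same replicate number correlated at 0.05, 0.03 and -0.04, and other combinations at -0.09 to 0.07. Not every array correlated best with its own number. These values show no pairing of arrays by replicate number but cannot exclude it. With a replicate block MET kept its call (adjusted p = 0.0282), 0 of the 10 receptors rose, and 146 of all genes rose and 576 fell. In the pathway lists, 1 of the other growth receptors and co-receptors and 1 adaptor then rose.

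Over all genes, 244 rose and 897 fell. The counts were 517 and 1570 under the dim filter, which tests fewer genes, 400 rises with a trended robust variance and 395 among protein-coding genes. With 1 array left out, rises ranged from 70 to 237 and falls from 319 to 662. In the pathway lists, centring arrays left 1 rise among the other receptors and 1 among the adaptors. The dim filter gave 2 falls of other receptors, 1 rise and 1 fall of ligands, 1 rise of a ligand-processing gene and 3 falls of adaptors. Protein-coding genes alone gave 2, 1 and 3 falls of other receptors, ligands and adaptors and 1 rise of a ligand-processing gene. Ligands had 1 fall after cyclic loess, and with a trended robust variance 1 fall, beside 1 rise of a ligand-processing gene and 2 falls of adaptors. With 1 array left out, other receptors had 0 to 1 rises and 1 fall, ligands 0 to 1 falls, and adaptors 1 to 2 rises and 0 to 1 falls. Apart from fewer genes tested or fewer arrays, the cause was not tested. The low levels of FGFR2 and MST1R limit what can be seen of them.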
